A study of Mus musculus with 33 samples.

Results

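Ovaries of cycling mice in the stage labelled DE were compared with ovaries whose stage label reads KO (anestrus), by sequencing of polyadenylated RNA. The comparison used the 4 libraries titled DE and the 4 titled KO in the stage experiment, 8 of the 33 libraries of the series, across 16944 genes with enough counts to test. All 8 carry the genotype label WT, so the knockout status of the second group stands in its title and stage label and not in its genotype label. In usual usage DE stands for diestrus, the stage of the mouse cycle in which corpora lutea secrete progesterone, and anestrus for a state without cycles; the labels do not spell DE out. The other libraries of the same experiment were 4 each of the stages PE and E, also labelled WT. Values from the first experiment, with 3 libraries labelled WT and 3 labelled Fshb(-/-), are set beside the results. The allele behind the KO label of the stage experiment, the strain and the age of the mice are not given in the labels, which also do not say whether the libraries of a group came from separate animals. A p-value below therefore stands for the spread between libraries, part of which may be technical.

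Follicle-stimulating hormone (FSH) is made by the pituitary from a shared alpha subunit and a hormone-specific beta subunit encoded by Fshb. Its receptor sits on the granulosa cells around the oocyte, where it raises cyclic AMP and with it aromatase, the inhibin and activin subunits and the receptor for luteinizing hormone (LH). Theca cells outside the follicle make androgen, which granulosa cells turn into estrogen, and after ovulation the remaining cells form a corpus luteum. Mice without Fshb are known to be infertile, with follicles that stop growing before ovulation.

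Fshb itself (chromosome 2, 107056140 to 107059656, GRCm38) did not separate the groups. It was read at 7.06, 4.62, 14.9 and 5.32 counts per 1000000 (CPM) in DE replicates 1 to 4 and at 7.02, 8.12, 7.75 and 8.38 CPM in KO (anestrus) replicates 1 to 4, with a log2 fold change of 0.03 ± 1.07 (standard error; edgeR adjusted p = 0.99). In the first experiment Fshb was at 0.0408 ± 0.0353 CPM in the libraries labelled WT and at 4.98 ± 0.836 CPM in those labelled Fshb(-/-) (mean ± SD, n = 3 each), higher in the mutant. A count per gene is blind to the stretch of Fshb that was read, so it does not check the labels here. Both groups are called by their labels throughout, and each direction rests on them.

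The 8 libraries held 10890629 to 15229173 counts each. Markers of ovarian cells were read in all of them: Foxl2 of granulosa cells ran from 78.9 to 159 CPM and the oocyte gene Gdf9 from 23.1 to 166 CPM. Transcripts of the oviduct, the tube that lies against the ovary, separated DE replicate 3 from the other DE libraries. Ovgp1, which encodes the main secreted glycoprotein of the oviduct, was at 7043, 4565, 3.0 and 3174 CPM in the DE libraries and at 1.36, 36.2, 5.83 and 35.6 CPM in the KO (anestrus) libraries. The oviduct index, the mean log2(CPM + 1) of 20 oviduct epithelium genes, was 5.23, 4.83, 1.10 and 4.64 at DE and 1.16, 1.67, 1.21 and 1.72 in KO (anestrus). Its difference of 2.51 had p = 0.143 in a two-sided exact permutation test, in which the smallest p that 4 against 4 libraries allow is 0.0286. DE replicates 1, 2 and 4 were rich in oviduct transcripts and DE replicate 3 was not, while PE libraries ran from 4.68 to 5.49. The spread among libraries was wider at DE: the median gene had an SD of log2(CPM + 1) of 0.252 at DE and 0.123 in KO (anestrus). Results were therefore also computed with DE replicate 3 as the only DE library, assumed to vary like the other groups, and with the oviduct index as a covariate; both settings were chosen after seeing the data. A count of 0 in a library allows up to 3 counts, by counting error only.

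Of the 16944 genes tested, 4249 passed an adjusted p of 0.05 in edgeR's quasi-likelihood test (25.1%), 2288 higher at DE (13.5%) and 1961 lower (11.6%). At least 2-fold differences made up 2173 of them (12.8% of all tested), 1483 higher (8.75%) and 690 lower (4.07%). Levels did not overlap between the groups in 4300 genes (25.4%), 3132 of which were also called (18.5%). DE replicate 3 was the lowest of the DE libraries in 1546 of the 2288 genes called higher, yet it lay above every KO (anestrus) library in 1482 of the 2288 and below every one in 1814 of the 1961 called lower. With the oviduct index as a covariate 1725 genes were called (10.2%), 747 higher (4.41%) and 978 lower (5.77%), 1464 of them among the 4249 and in the same direction. DE replicate 3 alone gave 317 calls (1.72% of 18426 genes), 152 higher (0.825%) and 165 lower (0.895%), of which 292 were among the 4249 and in the same direction. Leaving out 1 library in turn gave between 2422 calls (without KO (anestrus) replicate 3) and 5787 (without DE replicate 3, 33.5% of the 17260 genes then tested). Without replicate 3 of DE and of E it was 6142 (35.8%).

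**Figure D1:**
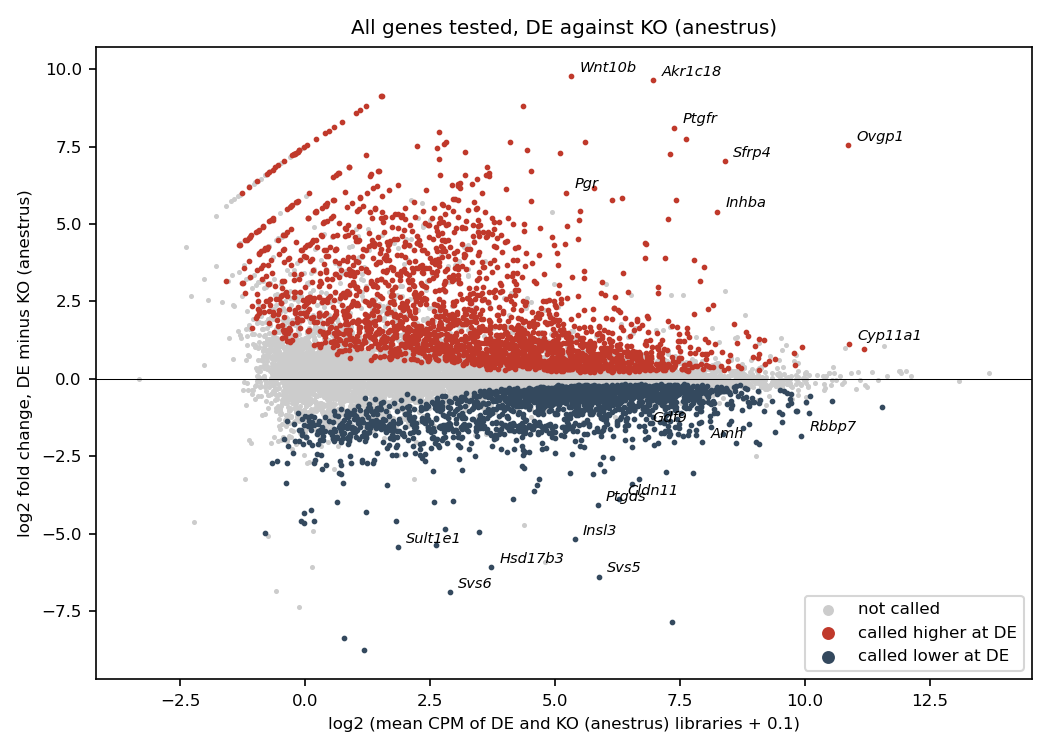
Log2 fold change (DE minus KO (anestrus)) of each of the 16944 genes tested, against the log2 mean CPM + 0.1 of the 8 libraries. Genes called higher at DE are red and those called lower are dark blue; the genes furthest from 0 include Wnt10b at 9.79 and Svs6 at -6.90.

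Genes that FSH controls in granulosa cells moved in both directions. Inhba, which encodes the beta subunit of activin A and inhibin A (chromosome 13, 16011851 to 16031621), was at 348, 366, 1056 and 596 CPM in the DE libraries and at 10.4, 11.1, 7.67 and 27.1 CPM in the KO (anestrus) libraries. Every DE library was more than 10 times as high as the highest KO (anestrus) library, and DE replicate 3 was the highest of all. The log2 fold change was 5.40 ± 0.85 (edgeR adjusted p = 0.00096) and 6.26 with DE replicate 3 alone. Inhbb, which encodes the other beta subunit, was at 329, 417, 805 and 310.3 CPM against 49.1, 37.5, 41.4 and 23.2 CPM, again with no overlap (3.62 ± 0.44, edgeR adjusted p = 0.00016). Inha, the alpha subunit that turns activin into inhibin, was at 729.6, 959, 1462 and 613 CPM against 921, 883, 693 and 961 CPM and did not pass (edgeR adjusted p = 0.79). The groups overlapped for Inha, since DE replicate 3 was the highest library and DE replicate 4 the lowest.

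Aromatase, which makes estrogen from androgen and is encoded by Cyp19a1 (chromosome 9, 54165937 to 54268110), had 7.47, 16.2, 38 and 19.1 CPM at DE and 1.89, 2.06, 1.75 and 1.58 CPM in KO (anestrus). The 4 KO (anestrus) libraries lay close together near the low end, and the DE libraries spread over a 5-fold range above them. Its log2 fold change was 3.46 ± 0.83 (edgeR adjusted p = 0.01). Anti-Müllerian hormone, which small growing follicles secrete and which restrains the recruitment of further follicles, went the other way. Amh (chromosome 10, 80805243 to 80807648) was at 47.1, 139, 143 and 54.2 CPM at DE and 385, 309, 453 and 438 CPM in KO (anestrus), a log2 fold change of -2.04 ± 0.32 (edgeR adjusted p = 0.00089). Amhr2, the receptor for that hormone, was also lower at DE, at 54.6, 108, 97.2 and 42.8 CPM against 206, 207, 191 and 199 CPM (-1.41 ± 0.23, edgeR adjusted p = 0.001). Both stayed called with the oviduct index as a covariate, at -1.84 for Amh and -1.34 for Amhr2. Fshr, the FSH receptor gene, was at 9.03, 17.9, 42.1 and 18.6 CPM at DE and 47.5, 43.2, 44.4 and 44.6 CPM in KO (anestrus). Its groups did not overlap, but DE replicate 3 came within the distance of 2 CPM of the lowest KO (anestrus) library and the difference did not pass (-1.03 ± 0.44, edgeR adjusted p = 0.097).

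Members of the gene lists were chosen with earlier results of these data known. A share called above that of all genes is therefore no independent test of a list, here or below. Across the FSH response list of 30 genes, 9 were called higher and 5 lower, 46.7% against 25.1% of all genes tested, with a median log2 fold change of 0.03 beside 0.01 for all genes. DE replicate 3 lay beyond all KO (anestrus) libraries in the same direction in 9 of the 9 and 4 of the 5. Among all called genes it did so in 1482 of 2288 higher and 1814 of 1961 lower. With the covariate 10 were called higher and 4 lower. Sgk1, a kinase gene that FSH induces through cyclic AMP in granulosa cells, was at 316, 91.3, 247 and 279 CPM at DE and 35.1, 35.3, 34.4 and 31.6 CPM in KO (anestrus) (2.77 ± 0.39, edgeR adjusted p = 0.00041). Runx2, a transcription factor gene of the late follicle and corpus luteum, was at 71.8, 25.8, 97.4 and 44.3 CPM against 2.42, 3.20, 3.42 and 2.89 CPM (4.32 ± 0.72, edgeR adjusted p = 0.0014). In Sgk1 and Runx2 alike, DE replicate 2 was the lowest DE library and still above all KO (anestrus) libraries. In whole-ovary RNA, fewer cells of a type and less RNA per cell cannot be told apart.

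**Figure D2:**
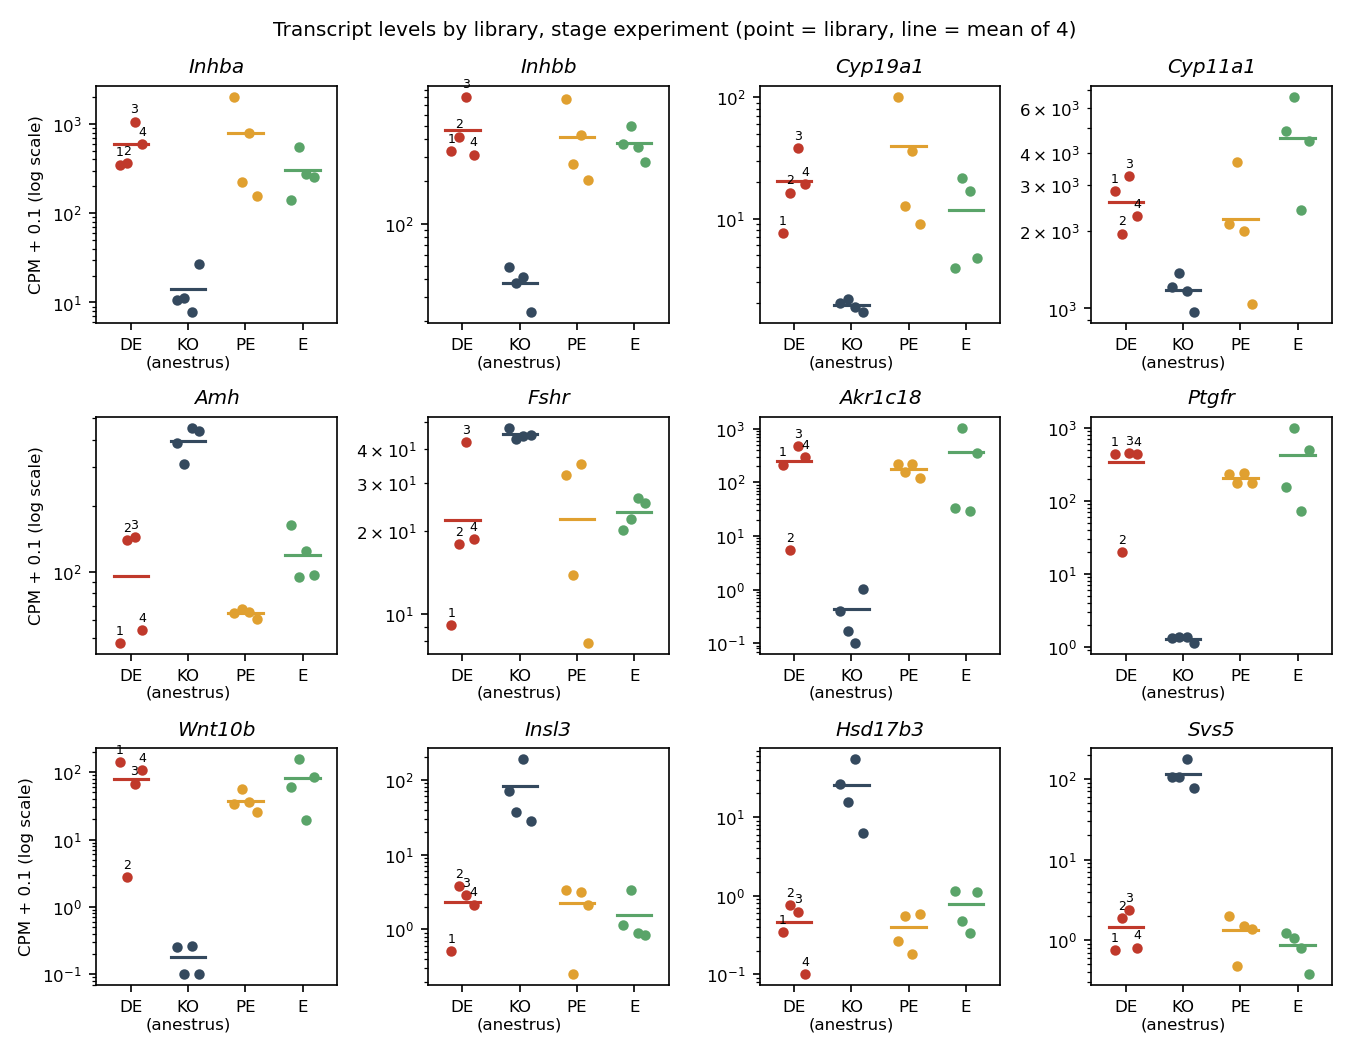
Levels of 12 genes in the 16 libraries of the stage experiment, as CPM + 0.1 on a log axis; each point is 1 library, numbers mark DE replicates and lines are means of 4. For Inhba, Inhbb, Cyp19a1, Cyp11a1, Akr1c18, Ptgfr and Wnt10b every DE library lies above every KO (anestrus) library, and for Amh, Fshr, Insl3, Hsd17b3 and Svs5 below.

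Of the 11 genes listed for pregnenolone and progesterone synthesis 3 were called higher and 1 lower, beside 13.5% and 11.6% of all genes tested. Among those called higher was Akr1c18, described below, which inactivates progesterone. The median of the list was 0.67, and the same numbers were called with the covariate. Cyp11a1, the mitochondrial enzyme that makes pregnenolone from cholesterol (chromosome 9, 58006411 to 58027023), was at 2845, 1950.4, 3247 and 2281 CPM at DE and 1212, 1370.0, 1171 and 967 CPM in KO (anestrus). The lowest DE library, replicate 2, lay above the highest KO (anestrus) library. The log2 fold change was 1.13 ± 0.34 (edgeR adjusted p = 0.027); the call ended without any 1 of DE replicate 1 and KO (anestrus) replicates 1, 3 and 4 (adjusted p up to 0.065), at 1.06 to 1.24 over all libraries left out. Hsd3b1, which makes progesterone from pregnenolone, was at 3367, 2457, 4384 and 2105 CPM against 1832, 1515, 1585 and 1365 CPM with no overlap (0.97 ± 0.23, edgeR adjusted p = 0.0097). Its relative Hsd3b6 was lower at DE, at 0.493, 1.12, 0.300 and 0.177 CPM against 1.51, 6.19, 2.92 and 1.49 CPM (-2.49 ± 0.61, edgeR adjusted p = 0.011). Reads shared by these related genes are divided by the quantifier, so the split between them is uncertain. Star, which carries cholesterol into mitochondria, was at 771, 266, 1111 and 158 CPM against 201, 217, 405 and 92.4 CPM, overlapped and did not pass (edgeR adjusted p = 0.25).

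Among the genes of steroid synthesis and breakdown described here, the largest fold belonged to an enzyme that inactivates progesterone. Akr1c18 encodes 20-alpha-hydroxysteroid dehydrogenase, which ends progesterone secretion by the corpus luteum (chromosome 13, 4132615 to 4150654). It was at 214, 5.34, 479 and 298 CPM at DE and 0.302, 0.0712, 0 and 0.931 CPM in KO (anestrus), with DE replicate 2 far below the other DE libraries and still above all KO (anestrus) libraries. Akr1c18 is 1 of the 12 largest rises, which were chosen only among genes without overlap between the groups. The log2 fold change was 9.64 ± 1.74 (edgeR adjusted p = 0.0022) and 10.60 with DE replicate 3 alone. The KO (anestrus) libraries held 15 counts of it in sum, and the fold ran over 9.16 to 10.87 with 1 library left out.

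Steps towards androgen and estrogen split. Cyp17a1, which makes androgen in theca cells, was at 10.7, 4.95, 448 and 159 CPM at DE and 1016, 905, 998 and 621 CPM in KO (anestrus). The groups did not overlap, but the DE libraries differed among themselves by more than 50-fold and the difference did not pass (-2.51 ± 1.40, edgeR adjusted p = 0.2). Hsd17b3, which makes testosterone from androstenedione and is known mainly from the testis, was at 0.246, 0.660, 0.525 and 0 CPM against 26.4, 15.5, 55.1 and 6.24 CPM (-6.08 ± 0.84, edgeR adjusted p = 0.00035). Sult1e1, the sulfotransferase that inactivates estrogen, was at 0.0821, 0.396, 0 and 0.0886 CPM against 4.76, 9.26, 9.67 and 4.0 CPM (-5.44 ± 0.91, edgeR adjusted p = 0.0012). Both were under 1 CPM in every DE library. Cyp1b1, which hydroxylates estrogen, was at 342, 454, 538 and 308 CPM against 1007, 1043, 1115 and 1132 CPM, lower in every DE library (-1.39 ± 0.17, edgeR adjusted p = 0.00016). Hsd17b7, an enzyme of the corpus luteum that activates estrogen and also acts in cholesterol synthesis, was at 433, 28.8, 841 and 427 CPM against 55.7, 48.7, 48 and 40.9 CPM. DE replicate 2 lay below all KO (anestrus) libraries and the other DE libraries far above them (3.16 ± 0.95, edgeR adjusted p = 0.028; up to 0.071 without any 1 of DE replicates 1 and 4 and KO (anestrus) replicates 1 to 4). Of the 11 genes listed for androgen and estrogen synthesis 2 were higher and 3 lower, beside 13.5% and 11.6% of all genes tested. Those lower were Hsd17b3 and the genes of estrogen inactivation and hydroxylation, Sult1e1 and Cyp1b1.

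The promoters of 4 of these genes are shown because a response to FSH runs through cyclic AMP and through the nuclear receptors SF-1 and LRH-1, whose binding motifs are known. Each is the RefSeq sequence (GRCm38.p6) from 250 bases before to 50 bases after the annotated start, written 5′ to 3′ on the gene's strand. Capitals mark TGACG, the core motif of the cyclic AMP response element, or AAGGTCA, the core motif of SF-1 and LRH-1, on either strand, where the reverse strand reads CGTCA and TGACCTT; the motifs do not overlap.
Cyp11a1, higher at DE (chr9:57997774-57998073, plus strand): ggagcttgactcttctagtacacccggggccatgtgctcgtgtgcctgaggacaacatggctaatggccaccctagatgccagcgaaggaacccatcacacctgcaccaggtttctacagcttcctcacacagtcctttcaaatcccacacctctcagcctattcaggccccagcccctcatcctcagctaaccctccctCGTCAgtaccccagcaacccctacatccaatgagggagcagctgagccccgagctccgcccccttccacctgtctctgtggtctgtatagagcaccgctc
Hsd17b7, higher at DE (chr1:169969156-169969455, minus strand): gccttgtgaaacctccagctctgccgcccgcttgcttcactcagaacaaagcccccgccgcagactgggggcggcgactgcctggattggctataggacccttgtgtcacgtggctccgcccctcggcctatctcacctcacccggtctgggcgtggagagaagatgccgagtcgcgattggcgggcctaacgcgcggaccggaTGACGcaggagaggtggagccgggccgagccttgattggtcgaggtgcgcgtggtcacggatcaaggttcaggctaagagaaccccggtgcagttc
Sgk1, higher at DE (chr10:21978422-21978721, plus strand): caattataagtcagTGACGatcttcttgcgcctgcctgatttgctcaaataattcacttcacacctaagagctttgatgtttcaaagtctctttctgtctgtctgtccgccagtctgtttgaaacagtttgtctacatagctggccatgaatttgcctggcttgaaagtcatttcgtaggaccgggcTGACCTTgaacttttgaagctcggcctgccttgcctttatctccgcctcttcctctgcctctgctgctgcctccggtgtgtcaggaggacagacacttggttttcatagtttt
Sult1e1, lower at DE (chr5:87591562-87591861, minus strand): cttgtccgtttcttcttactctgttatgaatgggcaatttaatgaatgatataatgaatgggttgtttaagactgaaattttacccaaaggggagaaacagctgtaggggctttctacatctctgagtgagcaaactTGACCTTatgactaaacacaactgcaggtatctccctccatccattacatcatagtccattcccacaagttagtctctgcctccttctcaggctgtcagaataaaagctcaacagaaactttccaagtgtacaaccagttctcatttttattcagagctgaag
The cyclic AMP core motif began 50 bases before the start of this Cyp11a1 promoter and 46 bases before that of Hsd17b7. Of the 2 Cyp11a1 promoters in RefSeq only the printed one held a motif, and it lies upstream of the GENCODE start of the gene given above; the other, from 58014702 to 58015001, held neither. This Sgk1 promoter, 1 of 6 of that gene, held both motifs, and Sult1e1 held the nuclear receptor core motif 113 bases before its start. The cyclic AMP core motif was in 20.8% and the nuclear receptor core motif in 4.7% of all 32851 RefSeq promoters. The 4 printed promoters all hold a motif, so they do not show how common the motifs are. Among the 33 promoters matched for the FSH response list the shares were 21.2% and 9.1%. In that list the cyclic AMP core motif was in 2 of 15 promoters of genes called higher and 2 of 4 of genes called lower. Each motif was in at most 1 of the 9 promoters of pregnenolone and progesterone synthesis and in 1 of the 10 of androgen and estrogen synthesis. In all 36 of the 47 genes on these lists were matched, some with several promoters. The promoters given for Inhba, Inhbb, Cyp19a1 and Akr1c18 held neither set of letters.

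Genes that supply cholesterol were called in part. In the list of cholesterol uptake and storage 5 of 15 tested genes were higher and 0 lower, beside 13.5% and 11.6% of all genes tested. The median was 0.65, and with the covariate 3 were higher. Plin4, which coats lipid droplets, was at 208, 117, 309 and 198 CPM at DE and 4.91, 32.9, 8.17 and 9.68 CPM in KO (anestrus) (3.89 ± 0.82, edgeR adjusted p = 0.0054). Vldlr, a lipoprotein receptor gene, was at 142, 112, 104 and 124 CPM against 46.4, 74.6, 57 and 88.3 CPM (0.85 ± 0.19, edgeR adjusted p = 0.0062), and Abcg1, which exports cholesterol, was at 32.2, 18.7, 28.4 and 20.7 CPM against 14.9, 8.40, 11.9 and 12.1 CPM (1.08 ± 0.27, edgeR adjusted p = 0.011). None of these 3 overlapped between the groups, but the calls of Vldlr and Abcg1 ended with the covariate (adjusted p = 0.059 and 0.056, edgeR). Plin4 is also a gene of fat cells, and adipocyte genes varied among these libraries: Adipoq, the fat cell hormone adiponectin, was at 16.4, 274, 35 and 141 CPM at DE and 0.378, 44.6, 1.75 and 8.19 CPM in KO (anestrus). The part of fat cells in the Plin4 difference was not tested; DE replicate 3, with Adipoq at 35.0 CPM, had the highest Plin4 of all 8 libraries. Of 22 genes that make cholesterol 1 was called, Hsd17b7, and the median was 0.14. With the covariate 5 were called higher with a median of 0.56, and with DE replicate 3 alone the median was 0.73.

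Many genes of the corpus luteum were higher at DE. Of 20 luteal cell genes 11 were higher and 0 lower, beside 13.5% of all genes tested called higher, with a median log2 fold change of 1.21. DE replicate 3 lay above all KO (anestrus) libraries in all 11, beside 1482 of 2288 among all genes called higher. With the covariate 10 luteal genes stayed called. Ptgfr, the receptor through which prostaglandin F2 alpha ends luteal life (chromosome 3, 151796502 to 151837630), was at 435, 19.7, 448 and 432 CPM at DE and 1.21, 1.28, 1.25 and 1.02 CPM in KO (anestrus). DE replicates 1, 3 and 4 lay within 4% of each other and DE replicate 2 more than 20-fold below them. Its log2 fold change was 8.11 ± 1.10 (edgeR adjusted p = 0.00032) and 9.23 with the covariate. The summed level of the luteal list ran from 6579 to 14316 CPM at DE, lowest in replicate 2, and from 3761 to 4887 CPM in KO (anestrus).

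The WNT pathway, a family of secreted ligands that guide cell fate and are active in granulosa and luteal cells, held the largest fold of the 12 genes named for their rise. The ligand gene Wnt10b (chromosome 15, 98770712 to 98778150) was at 141, 2.64, 67.6 and 107 CPM at DE and 0.151, 0, 0.167 and 0 CPM in KO (anestrus). The KO (anestrus) libraries held 4 counts of it together, and DE replicate 2 was more than 20-fold below the other DE libraries. The log2 fold change was 9.79 ± 1.40 (edgeR adjusted p = 0.00049), 9.57 with DE replicate 3 alone, and 9.36 to 10.32 over the libraries left out. Sfrp4, a secreted WNT antagonist of the corpus luteum, was at 1066, 53.6, 643 and 924 CPM against 3.63, 6.76, 2.25 and 8.10 CPM (7.02 ± 1.0, edgeR adjusted p = 0.00047). Sfrp2, a related antagonist, was at 12.7, 12, 20.2 and 17.5 CPM against 0.227, 0.783, 0.250 and 0.838 CPM (4.88 ± 0.71, edgeR adjusted p = 0.00051), and here DE replicate 2 lay with the other DE libraries. The receptor gene Fzd4, needed for luteal function in mice, was at 79, 120.1, 87.2 and 80.8 CPM against 44.8, 54.6, 49 and 44.4 CPM (0.93 ± 0.15, edgeR adjusted p = 0.00086). Of 31 tested WNT genes 12 were higher and 5 lower, beside 13.5% and 11.6% of all genes tested. With the covariate 7 were higher and 0 lower, and DE replicate 3 lay above all KO (anestrus) libraries in 9 of the 12, beside 1482 of 2288 among all genes called higher.

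Other genes among the 12 largest rises followed the same libraries. The rule chose these 12 only among genes without overlap between the groups. Onecut2, a homeobox transcription factor gene, was at 63.8, 0.264, 45.5 and 53 CPM at DE and 0.0755, 0, 0.0834 and 0.186 CPM in KO (anestrus), and its DE replicate 2 barely cleared the highest KO (anestrus) library (8.81 ± 1.89, edgeR adjusted p = 0.0059). Tnfrsf9, a receptor gene of the tumor necrosis factor family, was at 45.6, 0.528, 9.08 and 16.8 CPM against 0.151, 0.285, 0.167 and 0.0931 CPM (6.58 ± 1.38, edgeR adjusted p = 0.0052). Plekhg4, of a family of guanine nucleotide exchange factors (6.70 ± 1.32), and Slc5a4b, of the sodium-glucose transporter family (6.28 ± 1.25), were also lowest in DE replicate 2 among the DE libraries (edgeR adjusted p = 0.0037 and 0.0039). In these 4 genes DE replicate 2 was the low one, as in Wnt10b, Sfrp4, Ptgfr and Akr1c18. Mup22 (6.47 ± 1.49, edgeR adjusted p = 0.0084) belongs to a cluster of near-identical major urinary protein genes, so its value is uncertain, and KO (anestrus) replicate 2 held all 12 of the KO (anestrus) counts; without that library the group is at 0 and the fitted log2 fold change, which then depends on the prior count, was 11.05.

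A further 3 of these 12 were low in DE replicate 3, the library poor in oviduct transcripts. Pgr, the progesterone receptor gene, which granulosa cells switch on at the LH surge and which the oviduct also expresses, was at 78.1, 27, 6.0 and 184 CPM at DE and 0.529, 1.42, 0.667 and 1.95 CPM in KO (anestrus). DE replicate 3 lay above the KO (anestrus) libraries but far below the other DE libraries. Pgr differed by 6.01 ± 1.26 on the log2 scale (edgeR adjusted p = 0.0051), and 2.42 with DE replicate 3 alone (edgeR adjusted p = 0.58). Calb1, which encodes the calcium-binding protein calbindin, was at 332, 136, 5.10 and 164 CPM against 3.10, 3.20, 1.83 and 3.07 CPM (5.82 ± 1.26, 2.20 with the covariate, 0.88 with DE replicate 3 alone). Tmc5, of a family of membrane channel-like proteins, was at 46, 31.2, 0.600 and 18.8 CPM against 0.378, 0.0712, 0.0834 and 0.465 CPM (6.58 ± 1.64, 2.17 with the covariate, 1.29 with DE replicate 3 alone). The edgeR adjusted p of the full comparison was 0.0061 for Calb1 and 0.012 for Tmc5.

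Theca and interstitial genes split. Insl3, insulin-like peptide 3, a hormone gene of Leydig and theca cells (chromosome 8, 71689214 to 71690575), was at 0.410, 3.69, 2.78 and 2.04 CPM at DE and 70.2, 37.2, 192 and 28.2 CPM in KO (anestrus). KO (anestrus) replicate 3 was the highest library, and the lowest KO (anestrus) library was still more than 7 times the highest DE library. Insl3 differed by -5.17 ± 0.84 on the log2 scale (edgeR adjusted p = 0.0011) and -4.40 with the covariate. Pdgfra, the platelet-derived growth factor receptor of theca precursors, was at 199, 229, 211 and 178 CPM against 804, 770.4, 997 and 772 CPM, with no overlap and KO (anestrus) replicate 3 apart from its group (-2.03 ± 0.17, edgeR adjusted p = 5.7e-06). Ptch1, the hedgehog receptor and target through which granulosa cells signal to theca cells, was at 191, 198, 248 and 152 CPM against 393, 352, 428 and 373 CPM (-0.97 ± 0.12, edgeR adjusted p = 0.00016). Lum, which encodes the matrix protein lumican, moved the other way, at 340.0, 472, 208 and 405 CPM against 68.2, 88.6, 91.7 and 84.4 CPM (2.10 ± 0.29, edgeR adjusted p = 0.00036). In the list as a whole 3 of 18 genes were higher and 6 lower, beside 13.5% and 11.6% of all genes tested. The median was -0.47, and the same numbers were called with the covariate.

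Of the 12 largest falls, 3 lie near each other. Svs5 (chromosome 2, 164332740 to 164334396) and Svs6 (chromosome 2, 164316751 to 164318453), which encode secreted proteins of the seminal vesicle, and Eppin (chromosome 2, 164588343 to 164593594), which encodes a protease inhibitor of the epididymis and sperm surface, lie in the same region of chromosome 2. Svs5 was at 0.657, 1.78, 2.25 and 0.709 CPM at DE and 107, 104.6, 177 and 76.6 CPM in KO (anestrus) (-6.39 ± 0.47, edgeR adjusted p = 3e-06). Svs6 was at 0, 0.264, 0.150 and 0 CPM against 12.8, 15, 19 and 11.6 CPM (-6.90 ± 0.73, edgeR adjusted p = 4.1e-05), with 6 counts in the DE libraries together. Eppin was at 0.575, 0.594, 0.900 and 0.709 CPM against 23.9, 24.2, 19.6 and 18.4 CPM (-4.94 ± 0.47, edgeR adjusted p = 1.6e-05). All 3 were under 3 CPM in every DE library, DE replicate 3 included. In the PE and E libraries Svs5 had means of 1.23 and 0.770 CPM. Cldn11, the tight junction gene of Sertoli cells and myelin, had the smallest adjusted p of the 24 genes ranked by size, at 6.40, 13.5, 11.1 and 8.33 CPM against 130.3, 150.1, 154 and 149 CPM (-3.88 ± 0.22, edgeR adjusted p = 2e-07). Sox8, named from the list of gonadal somatic identity and not for its size, a transcription factor gene of the Sertoli lineage, was at 1.31, 1.45, 1.35 and 1.77 CPM against 7.86, 8.62, 8.42 and 7.82 CPM (-2.47 ± 0.21, edgeR adjusted p = 7.2e-06).

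The remaining genes of the 12 largest falls came from varied classes. Ptgds, prostaglandin D2 synthase, was at 11.8, 3.96, 5.33 and 4.79 CPM against 73.9, 22, 311 and 30.1 CPM (-4.08 ± 0.74, edgeR adjusted p = 0.0023). KO (anestrus) replicate 3 was far above the others, and without it the log2 fold change was -2.70. Acan, the cartilage proteoglycan aggrecan, was at 1.31, 1.45, 0.0750 and 0.886 CPM against 13.7, 15.6, 16.8 and 11.6 CPM (-3.94 ± 0.76), and Slc24a2, a potassium-dependent sodium-calcium exchanger gene, at 0.410, 0.462, 1.28 and 0.621 CPM against 12.3, 8.33, 12.9 and 11 CPM (-3.99 ± 0.41). Nxf3, a nuclear RNA export factor gene on the X chromosome, was at 0.985, 3.17, 3.0 and 1.77 CPM against 26, 33.3, 40.8 and 33 CPM (-3.88 ± 0.38). In each of these genes every DE library lay below every KO (anestrus) library, as the rule for the 12 largest falls required. L3mbtl4 (-5.38 ± 0.66), a gene of the malignant brain tumor repeat family, and Actn3, alpha-actinin 3 (-3.64 ± 0.32), completed the set. The edgeR adjusted p was 0.0031 for Acan, 3.1e-05 for Slc24a2, 1.9e-05 for Nxf3, 0.00015 for L3mbtl4 and 8.2e-06 for Actn3. Actn3 is a skeletal muscle gene; Ckm, the creatine kinase of that muscle, was at 0.164 to 0.50 CPM in the 8 libraries.

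Oocyte transcripts were lower in the DE libraries throughout. All 31 genes of the oocyte list were lower with no overlap between the groups and 30 of them were called, 96.8% against 11.6% of all genes tested called lower, with a median log2 fold change of -1.55. Of all genes tested 25.4% did not overlap, in either direction. Gdf9, the growth factor by which the oocyte directs granulosa cells (chromosome 11, 53431023 to 53437904), was at 23.1, 61.4, 98.7 and 43.3 CPM at DE and 159.7, 161, 166 and 164 CPM in KO (anestrus) (-1.52 ± 0.31, edgeR adjusted p = 0.0046). Nlrp5, a maternal effect gene of the egg's subcortical complex (chromosome 7, 23385889 to 23441922), was at 21.9, 49.1, 85.5 and 42 CPM against 161, 174, 213 and 189 CPM (-1.89 ± 0.32, edgeR adjusted p = 0.0013). Within the DE group both genes ran in the same order, lowest in replicate 1 and highest in replicate 3, while the KO (anestrus) libraries were close to each other. Dppa3, a maternal factor that protects methylation in the zygote, was at 5.42, 13.1, 18.6 and 8.07 CPM against 32.9, 34.6, 44.9 and 44.3 CPM (-1.79 ± 0.30, edgeR adjusted p = 0.0013), and Ooep, of the same subcortical complex, at 5.83, 16.5, 24.6 and 12.3 CPM against 40.7, 47.5, 56.6 and 51.6 CPM (-1.73 ± 0.30, edgeR adjusted p = 0.0016). Zbed3, also tied to that complex, was at 80.3, 121, 173 and 93.1 CPM against 233, 236, 259 and 282 CPM (-1.11 ± 0.18, edgeR adjusted p = 0.0011). The list summed to between 417 and 1406 CPM at DE and between 2267 and 2613 CPM in KO (anestrus). Among the DE libraries the sum was highest in replicate 3, where the oviduct index was lowest, and lowest in replicate 1, where the index was highest; replicates 2 and 4 did not follow that order, and the part of other tissue in this was not tested. DE replicate 3 lay below all KO (anestrus) libraries in all 30 called genes, near the 1814 of 1961 among all genes called lower. With DE replicate 3 alone the median was -0.73. With the covariate 23 were called lower.

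Most genes of the cell cycle did not pass. Of 38 members 7 were called lower, beside 11.6% of all genes tested, 1 was called higher and 30 were not called. The median was -0.49 with all DE libraries and -0.06 with DE replicate 3 alone, and 0 were called with the covariate. Bub1b, a spindle checkpoint kinase gene, was at 30.3, 60.9, 99.6 and 41.8 CPM at DE and 109, 101, 107 and 118 CPM in KO (anestrus) (-0.90 ± 0.25, edgeR adjusted p = 0.022). Its call ended without any 1 of DE replicate 4 and KO (anestrus) replicates 1 and 4 (adjusted p up to 0.061). The member called higher, the cyclin gene Ccnd1, was at 123, 98.2, 26.9 and 114 CPM against 28.9, 31.1, 23.2 and 27.5 CPM (1.71 ± 0.48, edgeR adjusted p = 0.022), with DE replicate 3 among the KO (anestrus) libraries. Its direction flipped to -0.02 with DE replicate 3 alone, and the call ended without any 1 of DE replicates 1 and 4 and KO (anestrus) replicates 3 and 4 (adjusted p up to 0.062).

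Beyond the genes already described, the inhibin, activin, BMP and AMH family had 6 of 37 members higher and 11 lower. Of all genes tested 13.5% were called higher and 11.6% lower. With the covariate 5 of the family were higher and 5 lower. Tgfbr3, betaglycan, the co-receptor that lets inhibin block activin, was at 168, 160.5, 156 and 150.1 CPM at DE and 260.4, 275, 278 and 288 CPM in KO (anestrus), tight in both groups (-0.80 ± 0.13, edgeR adjusted p = 0.00089). Among 18 hormone receptor genes 5 were higher and 4 lower, and with the covariate 2 and 3. Igf1r, the receptor for insulin-like growth factor 1, was at 193, 158, 246 and 145 CPM against 305, 288, 338 and 299 CPM (-0.73 ± 0.15, edgeR adjusted p = 0.0043), and Ptger2, a prostaglandin E receptor gene of cumulus cells, at 12.2, 14.7, 18 and 11.2 CPM against 24, 26.9, 24.9 and 28 CPM (-0.89 ± 0.16, edgeR adjusted p = 0.0022). Lhcgr, the LH receptor gene, was at 327, 88.6, 515 and 240.2 CPM against 291, 367, 241 and 280.3 CPM and did not pass (-0.01 ± 0.61, edgeR adjusted p = 0.99). The DE libraries lay on both sides of the KO (anestrus) libraries, replicate 2 lowest and replicate 3 highest.

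In the insulin-like growth factor (IGF) system 6 of 17 tested genes were higher and 1 lower, beside 13.5% and 11.6% of all genes tested. With the covariate 3 were higher and 4 lower, and the median moved from 0.35 to -0.008. In the first experiment 3 were higher and 4 lower in WT. Stc1, stanniocalcin 1, a hormone that blocks the IGF-releasing proteases, was at 143, 189, 133 and 139 CPM at DE and 14.7, 17.3, 11.2 and 12.9 CPM in KO (anestrus) (3.42 ± 0.31, edgeR adjusted p = 1.2e-05). Pappa, the protease that frees IGF in large follicles, was at 16.3, 7.52, 23.6 and 19.6 CPM against 3.93, 6.62, 6.25 and 4.10 CPM (1.68 ± 0.44, edgeR adjusted p = 0.016), and Igfbp4, the binding protein it cuts, at 339, 353, 169 and 322 CPM against 99.8, 119, 132 and 114 CPM (1.35 ± 0.22, edgeR adjusted p = 0.0011). None of the 3 overlapped between groups. In the renin-angiotensin system 2 of 10 tested genes were higher and 2 lower, beside the same 13.5% and 11.6% of all genes. With the covariate 1 was higher and 2 lower. Ace, angiotensin-converting enzyme (chromosome 11, 105967945 to 105989964), was at 47.6, 56.4, 48.1 and 52.6 CPM against 223, 203, 206 and 231 CPM (-2.08 ± 0.17, edgeR adjusted p = 4.2e-06), and -2.15 with DE replicate 3 alone. Agt, angiotensinogen, its substrate's precursor, was lower as well (-1.58 ± 0.37, edgeR adjusted p = 0.0088), while Enpep, the aminopeptidase that degrades angiotensin II, was higher (1.26 ± 0.23, edgeR adjusted p = 0.0023).

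Of 22 tested genes of the LH surge and ovulation 6 were higher and 5 lower, beside 13.5% and 11.6% of all genes tested. With the covariate 1 was higher and 4 lower. Has2, the hyaluronan synthase of the expanding cumulus, was at 1.64, 1.12, 1.20 and 3.81 CPM at DE and 5.44, 6.98, 10.3 and 10.1 CPM in KO (anestrus) (-2.08 ± 0.38, edgeR adjusted p = 0.0022). Of 17 tested genes of gonadal somatic identity 2 were higher and 5 lower, beside the same shares of all genes. With the covariate 1 was higher and 4 lower. Wt1, the Wilms tumor factor of pregranulosa and surface cells, was at 151, 115, 88.8 and 100.3 CPM against 164, 176, 189 and 189 CPM (-0.66 ± 0.14, edgeR adjusted p = 0.005), and Tcf21, a factor of stromal and theca precursors, at 31.7, 50.5, 72.2 and 53.4 CPM against 110.1, 108, 105.2 and 124 CPM (-1.11 ± 0.18, edgeR adjusted p = 0.0012). All 3 were lower in every DE library.

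Many blood vessel genes were higher at DE. Of 20 endothelium genes 12 were higher and 0 lower, beside 13.5% of all genes tested called higher, with a median of 0.55. With the covariate 8 were higher and 1 lower. DE replicate 3 lay above all KO (anestrus) libraries in 10 of the 12, beside 1482 of 2288 among all genes called higher. Aplnr, the apelin receptor of growing vessels, was at 30.2, 59.1, 45.2 and 69.1 CPM at DE and 11.9, 15.5, 11.8 and 14.8 CPM in KO (anestrus) (1.91 ± 0.23, edgeR adjusted p = 0.00012). Pecam1, an adhesion molecule of all endothelium, was at 112, 125, 92.8 and 143 CPM against 50.8, 59, 56.1 and 59.8 CPM (1.06 ± 0.13, edgeR adjusted p = 0.00013), and Nos3, endothelial nitric oxide synthase, at 17.4, 19.4, 16.4 and 19.9 CPM against 10.3, 9.26, 8.50 and 7.35 CPM (1.04 ± 0.15, edgeR adjusted p = 0.0004). None of the 3 overlapped. Of 14 angiogenic ligands 3 were higher and 1 lower. The share called, 28.6%, was near the 25.1% of all genes tested, and the median was -0.04. With the covariate 1 was higher and 1 lower. Vegfa, the main growth factor of luteal vessels, was at 82.5, 81.5, 83.1 and 65.6 CPM against 28.9, 28.1, 26.3 and 23.8 CPM (1.54 ± 0.27, edgeR adjusted p = 0.0017), and Angpt2, which loosens vessels, was lower (-1.15 ± 0.24, edgeR adjusted p = 0.0054).

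Of 21 fibrillar collagen and matrix genes 5 were called, all higher, beside 13.5% of all genes tested. Their median was 0.49 with all DE libraries and -0.05 with DE replicate 3 alone, which gave 0 calls, and 3 were called with the covariate. Proteases and their inhibitors split, 5 of 26 higher and 5 lower, beside 13.5% and 11.6% of all genes tested. With the covariate 1 was higher and 3 lower. Fn1, fibronectin, was at 565, 389, 236 and 579 CPM at DE and 89.4, 108, 68.8 and 104.9 CPM in KO (anestrus) (2.25 ± 0.29, edgeR adjusted p = 0.00022), and Timp2, a metalloprotease inhibitor gene, at 466, 401, 281 and 363 CPM against 577, 675, 703 and 598 CPM (-0.76 ± 0.15, edgeR adjusted p = 0.0037). Neither overlapped between groups, and DE replicate 3 was the lowest of the DE libraries in both. Of 20 genes of macrophages and antigen presentation 6 were higher and 1 lower, beside the same shares of all genes. With the covariate these numbers were 2 and 1. Laptm5, a lysosomal gene of immune cells, was at 52.1, 36.1, 39.2 and 35 CPM against 27.3, 24, 23.3 and 25.3 CPM (0.70 ± 0.15, edgeR adjusted p = 0.0056), and Csf1r, the receptor that keeps macrophages alive, was lower (-0.55 ± 0.12, edgeR adjusted p = 0.0055). Of 11 tested lymphocyte genes 1 was higher, beside 13.5% of all genes tested. It was Ptprc, the common leukocyte antigen, a call that ended without any 1 of DE replicates 1, 2 and 4 and KO (anestrus) replicates 2, 3 and 4 (0.54 ± 0.19, edgeR adjusted p = 0.049, up to 0.13). Of 5 tested neutrophil genes 0 were called.

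Genes of tissues that surround the ovary varied among the DE libraries, and their part in the other differences was not tested. Oviduct, smooth muscle and surface epithelium genes summed lowest in DE replicate 3, while adipocyte genes summed lowest in DE replicate 1. The counts called higher that follow stand beside 13.5% of all genes tested. DE replicate 3 lay above all KO (anestrus) libraries in 1482 of the 2288 genes called higher. Of the 20 oviduct epithelium genes 15 were called higher at DE, with a median of 4.54; DE replicate 3 lay above all KO (anestrus) libraries in 1 of the 15, and with that library alone the median was -0.51. The list summed to 30.1 to 7937 CPM at DE and 42.1 to 88.3 CPM in KO (anestrus), with 5 of its members under 1 CPM in every KO (anestrus) library. Rsph1, a gene of the cilium spoke, was at 34.9, 19.5, 3.38 and 17.2 CPM at DE and 1.89, 4.13, 1.67 and 2.14 CPM in KO (anestrus), with DE replicate 3 among the KO (anestrus) libraries (2.92 ± 0.68, edgeR adjusted p = 0.009). Of 12 smooth muscle genes 9 were higher, of which DE replicate 3 lay above all KO (anestrus) libraries in 2, and 0 were called with the covariate. The smooth muscle list summed to 2784 to 8102 CPM at DE and 1634 to 3191 CPM in KO (anestrus). Tagln, a gene of the contractile apparatus, was at 702, 604, 327 and 1047 CPM against 146, 270.2, 223 and 312 CPM (1.49 ± 0.37, edgeR adjusted p = 0.012). Of 13 genes of the ovarian surface epithelium 6 were higher, and 0 with the covariate; Krt7, an epithelial keratin gene, was at 52.1, 38, 15.7 and 85 CPM against 12.4, 12.2, 11.9 and 7.82 CPM (2.10 ± 0.43, edgeR adjusted p = 0.0047). Adipocyte genes had 1 of 9 tested called, beside 25.1% of all genes tested. It was Plin1 (1.68 ± 0.59, edgeR adjusted p = 0.049, up to 0.15 without any 1 of DE replicates 2 and 4 and KO (anestrus) replicates 1, 3 and 4). Erythrocyte genes had 3 of 5 tested called higher, 2 of them globin genes whose near-identical copies share reads. With the covariate 0 erythrocyte genes were called, and 0 in the first experiment.

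**Figure D3:**
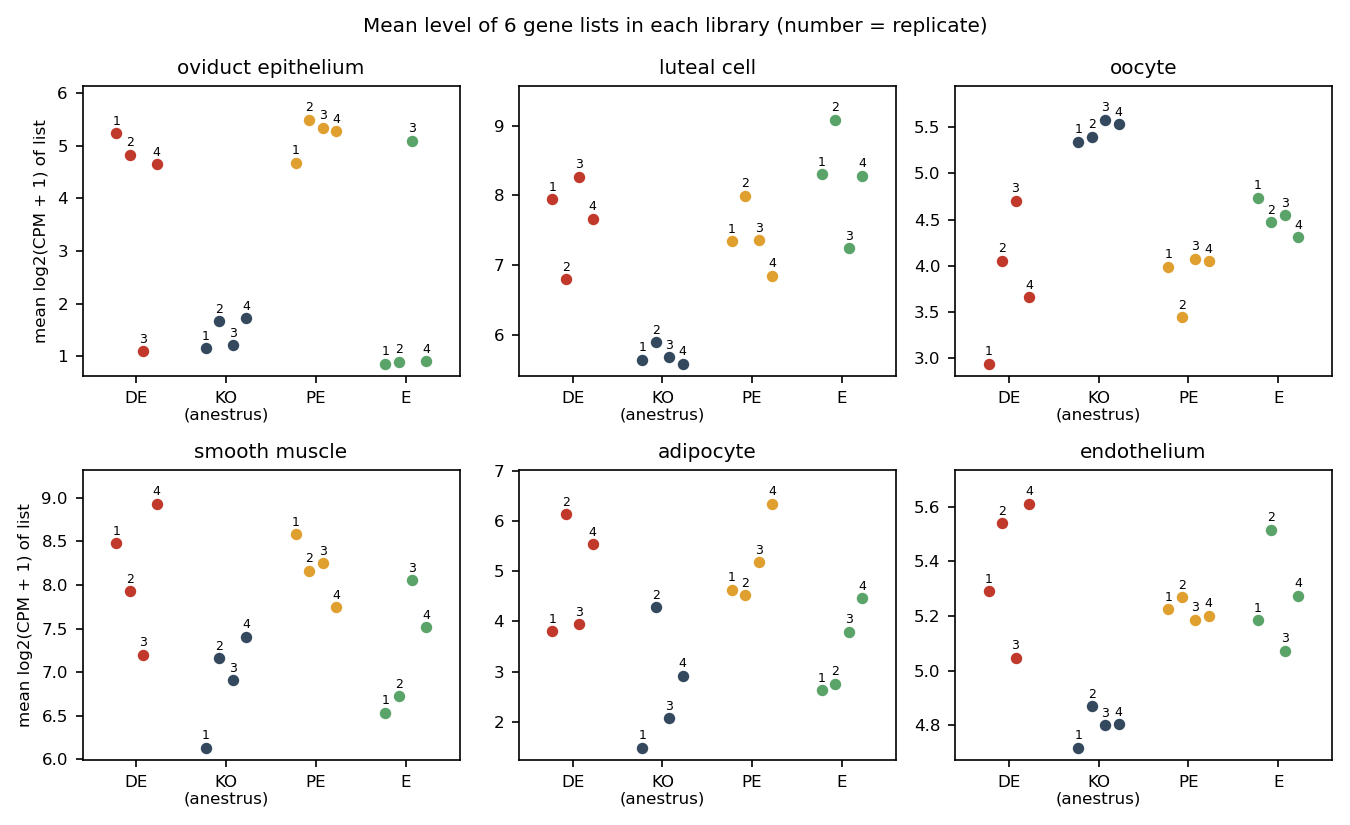
Mean log2(CPM + 1) of 6 gene lists in each library of the stage experiment, numbered by replicate. DE replicate 3 lies at 1.10 with the KO (anestrus) libraries in the oviduct list and at 8.27 above the other DE libraries in the luteal list, and all DE libraries lie below all KO (anestrus) libraries in the oocyte list.

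**Figure D4:**
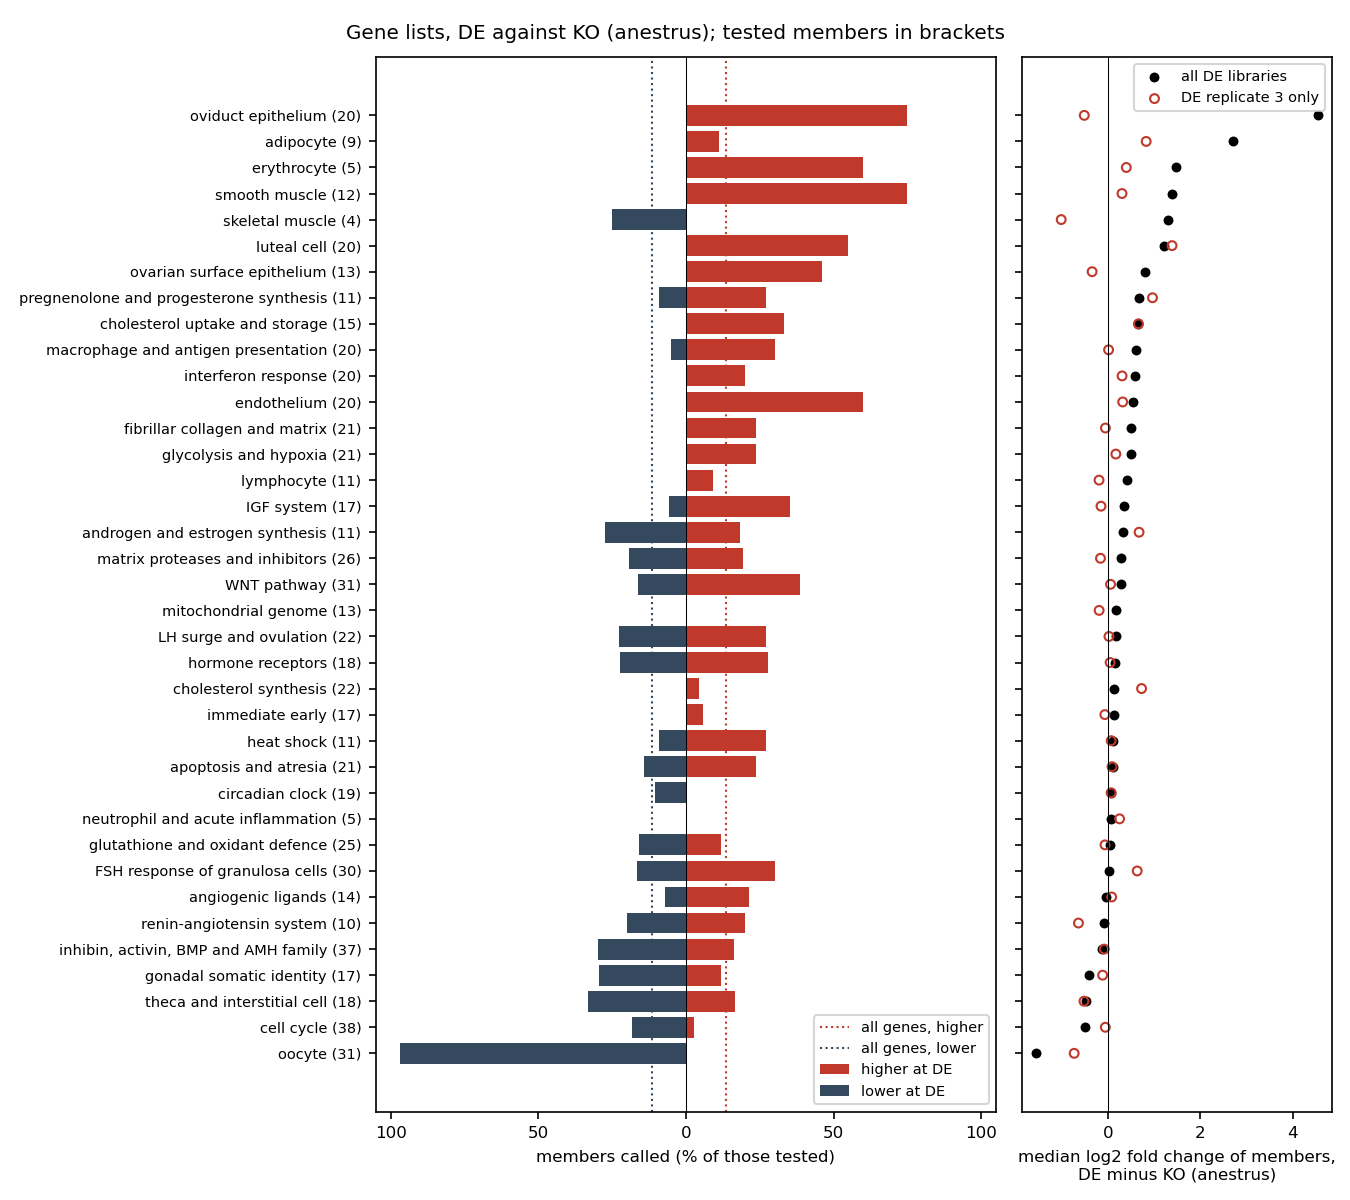
Share of tested members called higher or lower at DE for each of the 37 lists (bars, percent; dotted lines give 13.5% and 11.6% over all genes), and the median log2 fold change with all DE libraries or with DE replicate 3 alone. The luteal median is 1.21 with all DE libraries and 1.39 with replicate 3, and the oviduct median moves from 4.54 to -0.51.

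The most abundant genes by CPM, among those called and at least 2-fold different, included genes of metabolism, chromatin, muscle and the oviduct. Among those lower at DE, Rbbp7, a histone-binding subunit of chromatin complexes on the X chromosome (chromosome X, 162760402 to 162779092), was at 322, 472, 472 and 429 CPM at DE and 1467, 1476, 1585 and 1534 CPM in KO (anestrus) (-1.84 ± 0.13, edgeR adjusted p = 1.3e-06). Glul, glutamine synthetase, was at 771, 865, 413 and 689 CPM against 1531, 1504, 1578 and 1294 CPM (-1.11 ± 0.29, edgeR adjusted p = 0.017). Every DE library was below every KO (anestrus) library in both. Acsbg1, which activates long-chain fatty acids (-1.05 ± 0.18), and Gstm1, a glutathione transferase gene with close relatives (-1.15 ± 0.28), were lower too (edgeR adjusted p = 0.0013 and 0.01). Among those higher, Idh1, which makes NADPH in the cytosol, was at 926, 602, 953 and 601 CPM against 319, 344, 310.4 and 285 CPM (1.29 ± 0.32, edgeR adjusted p = 0.012), beside Cyp11a1, Ovgp1 and the smooth muscle genes Acta2 (1.02 ± 0.34) and Myh11 (1.24 ± 0.36). Ovgp1 had a log2 fold change of 7.55 ± 2.59 (edgeR adjusted p = 0.046); the call ended without any 1 library other than DE replicate 3 (adjusted p up to 0.11), and the direction flipped to -1.0 with the covariate and to -2.69 with DE replicate 3 alone. Acta2 and Myh11 overlapped between groups and had edgeR adjusted p = 0.041 and 0.024, up to 0.14 and 0.069 without 1 library (DE replicates 1 and 4 and KO (anestrus) replicates 1, 2 and 3 each ended both calls).

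Whether the DE levels were particular to that stage was asked against the mean of PE and E. No gene passed in edgeR (0 of 16944, 0.0%; 483 at an unadjusted p under 0.05, 2.85%); DESeq2 called 2 and limma voom 0. Inhba was at 2017, 224, 799.5 and 155 CPM at PE and 142, 557, 274 and 255 CPM at E, Cyp19a1 at 101, 12.6, 36.1 and 8.90 CPM and 3.77, 21.5, 16.7 and 4.63 CPM. In both genes every PE and E library lay above every KO (anestrus) library, as the DE libraries did. Amh was at 64.6, 67.3, 65.5 and 60.7 CPM at PE and 162, 94.6, 124 and 96.8 CPM at E, below every KO (anestrus) library. Svs5 was at 1.88, 0.376, 1.39 and 1.26 CPM and 1.14, 0.956, 0.706 and 0.278 CPM. Without replicate 3 of DE and of E, the DE library poorest and the E library richest in oviduct transcripts, 1090 genes passed (6.35%), 1038 of them higher at DE (6.05%) and 17 of the 20 oviduct genes among them; with the oviduct index as a covariate 0 passed.

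The first experiment gave a comparison of WT with Fshb(-/-) ovaries that shares no library with the stage experiment. Its libraries came from another sequencing site, per the labels' protocols, and carry no stage. Of 17223 genes tested there 1355 were called (7.87%), 575 higher (3.34%) and 780 lower (4.53%) in WT. Of the 16091 genes tested in both, 3902 were called in the DE comparison, and 3353 of these (85.9%) had the same sign in the first experiment, against 67% of all 16091. Calls in both with the same sign numbered 827, which is 21.2% of the 3902 and 62.9% of the 1315 called in the first experiment, and 0 were called with opposite signs. Across genes, which are not independent replicates, Pearson's r of the fold changes was 0.567 and Spearman's coefficient 0.525. Of the 316 genes called with DE replicate 3 alone and tested in both, 312 (98.7%) had the same sign.

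Single genes can be set side by side. Inhba had a log2 fold change of 5.40 here and 4.42 ± 0.35 in the first experiment (WT minus Fshb(-/-); edgeR adjusted p = 0.00075), Inhbb 3.62 and 3.22 ± 0.44 (0.0054), and Cyp19a1 3.46 and 3.69 ± 0.43 (0.0031). Among genes lower at DE, Svs5 had -6.39 and -5.53 ± 0.43 (0.00078), Insl3 -5.17 and -4.15 ± 0.62 (0.0093), Amh -2.04 and -1.88 ± 0.23 (0.0031), and Ace -2.08 and -2.46 ± 0.19 (0.00048). All 7 passed in both experiments in the same direction. Of the luteal genes, Ptgfr was at 6.32 ± 1.60 (0.054) and Akr1c18 at 7.63 ± 2.14 (0.073) there, not past the threshold, while Wnt10b was at 6.97 ± 1.53 (0.036). Ovgp1 was at 1.34 ± 1.76 (0.68) and Sox8 at -0.68 ± 0.26 (0.15), both not past the threshold. Of the 31 oocyte genes 21 were lower in WT and 0 higher there, with a median of -0.91, and of the 20 endothelium genes 10 were higher and 1 lower. The smooth muscle and oviduct lists had 0 calls there, of 12 and 16 genes tested.

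**Figure D5:**
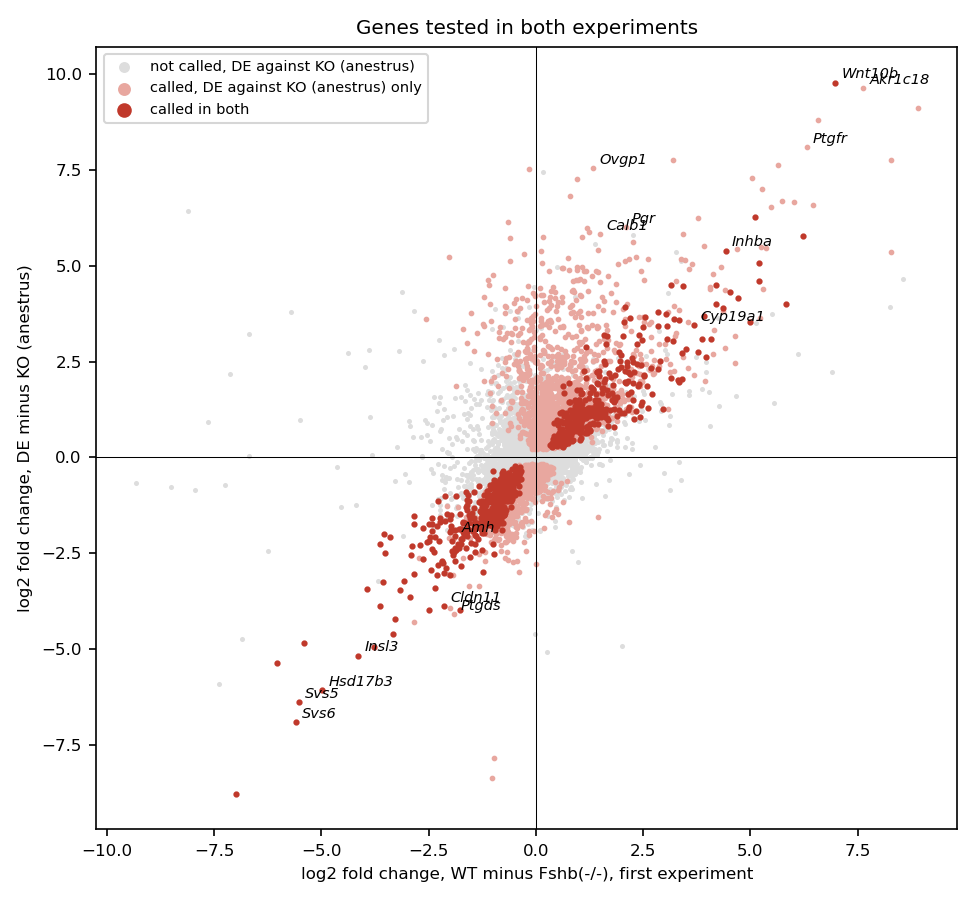
Log2 fold changes of the 16091 genes tested in both experiments, WT minus Fshb(-/-) of the first experiment on the horizontal axis and DE minus KO (anestrus) on the vertical axis. Dark red points are the 827 genes called in both, which lie at the lower left (479) and the upper right (348).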

How the data were processed

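RNA of mouse ovaries was sequenced after poly(A) selection. The authors deposited estimated counts per gene, made with Salmon against GRCm38 per the submitters' processing notes, which also name DESeq2; versions were not stated. The table held 54347 gene IDs in 33 libraries of 9 groups and 3 experiments, and 10.5% to 11.9% of the values of the DE and KO (anestrus) libraries were not whole. Expected counts were rounded before testing. Symbols and coordinates came from GENCODE M21 (GRCm38): 53307 IDs matched including the version suffix, 54094 once it was dropped, and the 253 left without a symbol held 0.00553% of counts. CPM are counts per 1000000 of the library's counts in tested genes, scaled by its TMM factor (0.979 to 1.027 in the stage experiment).

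All 16 libraries of the stage experiment were fitted together in edgeR 4.0.16 (R 4.3.3) with TMM factors, filterByExpr, the robust quasi-likelihood test and Benjamini-Hochberg adjustment over all genes tested. Fold changes are DE minus KO (anestrus), and their standard error is the fold change divided by the square root of F. The first experiment was fitted separately, with its heterozygous libraries in the fit. The fit was tested on simulated data. The DE and KO (anestrus) libraries held 10890629 to 15229173 counts, and the WT and Fshb(-/-) libraries of the first experiment 13587252 to 16931710.

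Named genes were Fshb and a panel of 12; the 12 largest called differences each way with a mean of at least 5 CPM, no overlap and no oviduct gene; up to 4 members of each of the 37 lists by smallest p; and the 5 most abundant called and at least 2-fold different genes each way. Foxl2 and Ckm, outside this rule, serve as markers; some genes that the rule names are not reported here; Tbx22 was chosen after its values were seen. Members and lists were chosen with earlier results of these data known. The alternatives were DESeq2 1.42.0, limma 3.58.1 voom with quality weights, factors by median of ratios, testing without a filter, a mean of at least 1 CPM, only the groups compared, a replicate block, each library left out, and replicate 3 of DE and of E left out. That last one had taken both of these libraries as rich in oviduct RNA, which held for E replicate 3 but not for DE replicate 3. The oviduct covariate (pseudocount 1) and DE replicate 3 as the only DE library were added after seeing the data.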

Additional observations from a re-analysis of the deposited data

Results flagged for a closer look

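In each group of 4 libraries the gap between the highest or lowest value and its nearest neighbour was set against the whole range, on the log2(CPM + 1) scale; past Dixon's critical value for 4 values the library stands apart. Among 338 groups examined 18 did so, and chance gives about 1 in 20. As a set the flags below are therefore about as many as chance gives.

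In the DE group, replicate 2 was the lowest for the luteal receptor gene Ptgfr (19.7 CPM, next 432), the WNT antagonist gene Sfrp4 (53.6 CPM, next 643) and Onecut2 (0.264 CPM, next 45.5), and the highest for Actn3 (5.21 CPM, next 3.0). DE replicate 3 was the lowest for the oviduct glycoprotein gene Ovgp1 (3.0 CPM), for the oviduct index (1.10), and for the collagen gene Col14a1 (24.1 CPM, next 58.5), Igfbp4 (169 CPM, next 322), Ccnd1 (26.9 CPM, next 98.2) and the small heat shock gene Hspb1 (13.1 CPM, next 48.8). DE replicate 4 was the lowest for Vegfa (65.6 CPM, next 81.5), still above every KO (anestrus) library.

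In the KO (anestrus) group, replicate 3 was the highest for Pdgfra (997 CPM, next 804) and the lowest for Calb1 (1.83 CPM, next 3.07). Replicate 4 was the highest for the inducible heat shock gene Hspa1a (20.8 CPM, next 12.2), whose near-identical copy shares reads, and the lowest for Krt7 (7.82 CPM, next 11.9). Replicate 2 held the only counts of Mup22 (0.854 CPM) and none of Plekhg4 (0 CPM, next 0.529). Replicate 1 was the highest for the muscle light chain gene Mylpf (1.21 CPM, next 0.417).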

How the results depend on the processing

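The count of genes called between DE and KO (anestrus), 4249, stayed within 1.5 times under DESeq2 (5142), voom (5792), factors by median of ratios (4242), testing without a filter (3037), a mean of at least 1 CPM (4056) and only the groups compared (3313). It ran from 2422 to 5787 with 1 library left out, was 6142 without replicate 3 of DE and of E, 1725 with the oviduct index as a covariate and 317 with DE replicate 3 as the only DE library. Against PE and E the count of 0 became 2 in DESeq2 and 1090 without replicate 3 of DE and of E; the cause was not tested. In the first experiment 1355 calls became 2419 in DESeq2 and 3589 in voom, and 456 to 1031 with 1 library left out. The deviations of same-numbered DE and KO (anestrus) libraries from their group means correlated at -0.13, 0.18, 0.08 and 0.23 for replicates 1 to 4. The best other-numbered KO (anestrus) library gave 0.10, -0.05, 0.23 and 0.04. With no reference for such values, they cannot decide whether the numbers pair the libraries. The replicate block gave 3351 calls. In the first experiment it gave 911. Of the 168 named genes 136 were called; of these, voom left 12 uncalled, the block 13, no filter 25 and DESeq2 0, while 96 stayed called with each library left out in turn. The oviduct covariate left 49 of them uncalled and reversed 1, DE replicate 3 alone left 92 uncalled and reversed 7, and 32 stayed called under every setting tried. Of the genes described, Pgr, Agt, Vldlr, Abcg1, Rsph1, Tagln, Krt7, Bub1b, Ccnd1, Acta2, Myh11, Ptprc, Plin1 and Hlf lost their call with the covariate. Directions held for all 136 under DESeq2, voom, the other factors and filters, the block and each library left out. With DE replicate 3 alone they reversed for Tekt1 (-0.26), Cfap126 (-0.25) and Hydin (-0.24), all cilium genes, and for Ccnd1 (-0.025), Ier3 (-0.0081), Hspb1 (-0.48) and Ovgp1 (-2.69), the last also with the covariate (-1.0). Depth limits genes at a few counts, such as Svs6 at DE or Wnt10b in KO (anestrus).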

Other observations

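Of 21 tested genes of glycolysis and hypoxia 5 were higher at DE and 0 lower, beside 13.5% and 11.6% of all genes tested. With the covariate 2 were higher. Pfkfb3, whose product sets the pace of glycolysis, was at 82.9, 66.5, 60.3 and 78.6 CPM at DE and 33.5, 37.7, 37.1 and 34.1 CPM in KO (anestrus), with no overlap (1.02 ± 0.17, edgeR adjusted p = 0.0011). Of 25 tested genes of glutathione and oxidant defence 3 were higher and 4 lower, and with the covariate 0 and 4. Of the 21 of apoptosis and atresia 5 were higher and 3 lower, and with the covariate 3 and 3. The shares over all genes are those given above. Casp8, the caspase of the death receptors, was at 31.7, 34.8, 30.8 and 38.5 CPM against 25.6, 22.6, 23.3 and 22.7 CPM (0.53 ± 0.09, edgeR adjusted p = 0.0013), and Bcl2l11, a death-promoting member of the BCL2 family, at 29.6, 27.2, 40.6 and 28 CPM against 48.3, 47.9, 58 and 51.2 CPM (-0.71 ± 0.13, edgeR adjusted p = 0.0028). Neither overlapped between groups. Of 20 interferon response genes 4 were higher, of 17 tested immediate early genes 1, and of 11 heat shock genes 3, with 1 lower. These stand beside 13.5% of all genes tested called higher. With the covariate 0 interferon and 0 heat shock genes and 1 immediate early gene were called. In the first experiment 0 of these lists were called. Of 19 clock genes 2 were lower, a share near the 11.6% of all genes tested. Among the 2 was Hlf (-1.19 ± 0.35, edgeR adjusted p = 0.025, up to 0.071 without any 1 of DE replicates 2, 3 and 4 and KO (anestrus) replicates 1, 3 and 4). In the first experiment 6 clock genes were higher in WT and 1 lower. Of the 13 genes of the mitochondrial genome 0 were called.

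Tbx22, a T-box transcription factor gene known from palate development, was chosen after its values were seen. It had a mean of 0 CPM at DE, PE and E and 4.35 ± 1.33 CPM in KO (anestrus) (SD, n = 4), with an edgeR adjusted p of 0.0011. In the first experiment it was lower in WT than in Fshb(-/-) ovaries (edgeR adjusted p = 0.0074).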
